A study of Homo sapiens with 2 samples.

Results

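The reference sequence chrUn_gl000220 is an unplaced human contig of 161802 bp in build hg19 that carries ribosomal DNA (rDNA). It holds 6456 CpGs, and the 2046 of them with at least 5 reads in each of 2 whole genome bisulfite libraries were compared, out of 1331621 such CpGs in the whole genome. Membership depended on position and read depth and not on methylation. Both libraries came from HEK 293T, an epithelial human cell line. The library named Neg is the negative control, which the study describes as cells that received no lentivirus. The library named dCas9+3A+HOXA5 came from HEK 293T cells transduced with 3 lentiviral vectors carrying nuclease-dead Cas9 joined to SunTag epitopes, the DNA methyltransferase DNMT3A joined to an antibody fragment that binds those epitopes, and a guide RNA against HOXA5. These cells were sorted for fluorescence and kept for 30 days, and they are a sorted pool and not a clone; their library is called the treated library below. The treatment text in the labels is the same for both libraries, so only the title sets them apart. Each group is 1 library, so no value below has a replicate check, and every test on reads compares these 2 libraries, not the conditions.

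Ribosomal DNA exists in the genome as long tandem arrays of near-identical units on the short arms of the acrocentric chromosomes. In each unit RNA polymerase I transcribes a single 45S precursor, which is cut into the 18S, 5.8S and 28S rRNAs, and an untranscribed intergenic spacer leads to the next unit. In most cells some units are active and hardly methylated while others are silent and methylated, so the methylation of a collapsed reference unit is an average over many genomic copies. Transcription ends at terminators just beyond the 28S gene, where the factor TTF1 binds repeated Sal boxes.

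The annotation used here has no gene on this contig, so the rDNA was placed by matching sequences. The best match to 5.8S pseudogene transcripts began at position 112025, and distances below are counted from there. The contig fell into 4 sections. A flank of 101548 bp led up to a stretch of 16282 bp (101549 to 117830) that recurred at the end of the contig (145519 to 161802) with 99.92% identity over 16288 aligned bases. This repeated stretch held the 5.8S match and the amplicon of the study's 18S qPCR primers. Between its 2 copies lay 27688 bp that are not part of this repeat. Of the 50-base stretches there, 87.8% occur once in the reference. The contig ends inside the second copy, so the end of the repeat is not the end of the gene: the first bases between the copies are, by general knowledge of this rRNA and not by an annotation, still the 3′ part of the 28S gene. By the same general knowledge the first 2170 bp between the copies (117831 to 120000) run past the end of the gene, which was not located. They are called the 3′-end stretch, and the other 25518 bp (120001 to 145518) the intergenic spacer. That boundary was drawn after the values had been seen, near where the sign of the difference changed, so the opposite signs on its 2 sides are a description that the choice of boundary fixed in part.

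The following reference stretches (hg19, plus strand, CpGs in capitals) carry the results. The first 4 lie in the first copy of the repeat. They are a stretch identical to the MIR6724 hairpin (chrUn_gl000220:104732-104823), one identical to the MIR10396B hairpin (chrUn_gl000220:108526-108576), the 18S amplicon (chrUn_gl000220:110654-110804) and the 5.8S match (chrUn_gl000220:112025-112177). The hairpin sequences were taken from RefSeq, and of these 4 only the 18S amplicon and the 5.8S match show where rRNA genes were placed. The next is the part of the 3′-end stretch with the largest single-CpG gains (chrUn_gl000220:118032-118124). The next surrounds a spacer CpG with a large loss at 122839 (chrUn_gl000220:122809-122870). The last is a CpG-rich stretch of the flank that stayed near 0 in both libraries (chrUn_gl000220:7678-7977), matched at 99.3% identity to the minus strand of the RefSeq promoters of LOC124904989, LOC124904990, LOC124904991 and LOC124904992 alike.
MIR6724 hairpin match: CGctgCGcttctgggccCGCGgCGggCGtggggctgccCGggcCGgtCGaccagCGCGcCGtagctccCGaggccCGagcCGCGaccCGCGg
MIR10396B hairpin match: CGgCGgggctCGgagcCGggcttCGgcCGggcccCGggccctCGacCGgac
18S amplicon: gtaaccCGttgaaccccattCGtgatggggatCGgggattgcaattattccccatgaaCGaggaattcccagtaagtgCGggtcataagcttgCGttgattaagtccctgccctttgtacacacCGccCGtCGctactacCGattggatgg
5.8S match: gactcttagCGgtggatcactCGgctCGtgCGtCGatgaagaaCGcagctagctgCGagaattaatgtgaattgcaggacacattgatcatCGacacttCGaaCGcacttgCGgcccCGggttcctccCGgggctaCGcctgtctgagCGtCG
3′-end stretch: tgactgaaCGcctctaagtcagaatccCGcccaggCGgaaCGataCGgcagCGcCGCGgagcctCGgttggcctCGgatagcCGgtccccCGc
Spacer loss around 122839: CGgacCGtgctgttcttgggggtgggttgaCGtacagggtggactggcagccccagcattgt
Flank CpG-rich stretch: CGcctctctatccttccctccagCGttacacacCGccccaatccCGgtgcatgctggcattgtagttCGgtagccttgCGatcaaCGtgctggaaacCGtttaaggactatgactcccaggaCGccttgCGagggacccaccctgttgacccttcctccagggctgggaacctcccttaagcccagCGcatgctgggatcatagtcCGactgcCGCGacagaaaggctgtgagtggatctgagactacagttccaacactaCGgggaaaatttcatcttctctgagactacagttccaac

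The 2 deposited files did not hold the same sections of the contig. In Neg all 2002 CpGs of each copy of the repeat were listed. In the treated library 88 of 2002 were listed in the first copy and 31 of 2002 in the second, and the longest run of CpGs without a read covered 12947 bp of the first copy (104426 to 117372, 1849 CpGs) and 13499 bp of the second (148274 to 161772, 1899 CpGs). Over those runs Neg held 585530 and 617695 reads with mean methylation levels of 29.0% and 28.8%. The CpGs that the treated library did list lay within 450 bases, in the first copy, of a base that differs between the copies or of the repeat's edge, and within 154 bases in the second. The same was seen on the 9 alternative haplotype sequences, which repeat the main chromosomes: the treated library listed 2.94% as many CpGs there as Neg, against 68.2% on the main chromosomes. Between the copies 117 CpGs have surrounding 50 bases that occur more than once in the reference. Their median was 458 reads in Neg and 196 in the treated library. The 1116 CpGs between the copies whose surrounding bases occur once had 501 and 292.5. The cause of the gap was not tested, and the handling of reads with several matches is not stated in the methods or labels. No comparison of the 18S gene, the 5.8S gene or most of the 28S gene between the libraries was possible.

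Depth was expressed as reads per reference CpG relative to chromosomes 1 to 22, X and Y, where Neg averaged 3.19 and the treated library 1.66. The flank had a relative depth of 4.16 in Neg and 4.18 in the treated library, a ratio of 1.01. The section between the copies stood at 170.9 and 177.6, a ratio of 1.04. The copies stood at 99.2 each in Neg and at 1.13 and 0.443 in the treated library. As averages the sections outside the repeat were thus covered to like relative depth in both libraries, and the repeat was not. Within the section between the copies the ratio was 0.857 for the 3′-end stretch, with 0.706 in its piece at 118001, and 1.12 for the intergenic spacer. For the whole contig the ratio was 0.371, set by the missing repeat. Per CpG listed in both files it was 0.735, with 0.765 for the flank and 0.771 between the copies, so these ratios depend on the base used. Depth counts reads matched to a collapsed reference, so the number of rDNA units and their coverage cannot be told apart.

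**Figure D1:**
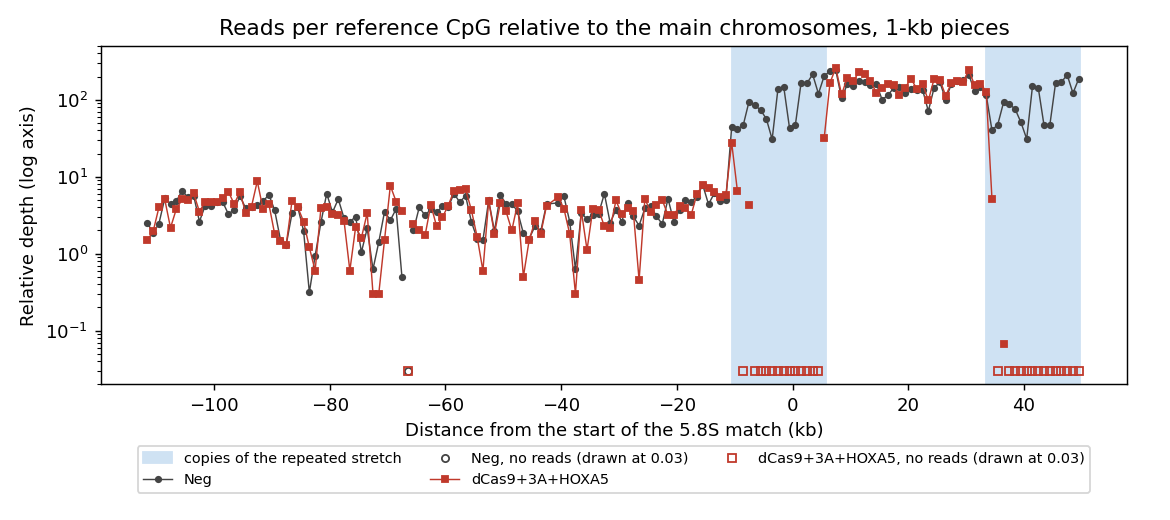
Relative depth (log axis, reads per reference CpG divided by that of the main chromosomes) of each 1-kb piece against distance from the 5.8S match, for Neg (circles) and the treated library, dCas9+3A+HOXA5 (squares); shading marks the copies of the repeat, and open symbols on the lower edge are pieces with no reads. As section averages the libraries are alike on the flank (4.16 and 4.18) and between the copies (170.9 and 177.6), though single pieces vary. In the treated library 13 pieces of the first copy and 14 of the second have no read.

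In Neg the repeat gave a methylation profile of the 45S region, given here at each copy. The copies are identical at nearly all bases, so sequence alone cannot assign most reads to either. Their agreement is therefore no independent check of the profile. Reads were shared almost evenly, 632908 to the first copy and 632949 to the second over 2000 paired CpGs. The mean levels were 30.13% and 30.11%, and paired CpGs differed with an SD of 5.74 points. Levels fell from upstream into the genes. They stood at 48.8% to 60.6% over the stretches from 11 to 8 kb before the 5.8S match, counting both copies, and at 38.3%, 41.8% and 36.2% over the next 3 kb. The kilobases from 5000 and 4000 bases before the match had 34.1% and 30.9%.

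Within the genes the profile was uneven. The 2 kb that begin 3000 and 2000 bases before the match, the second of which holds the 18S amplicon, had 26.8% and 27.6%. The kilobase just before the 5.8S match, which holds spacer sequence between the 18S and 5.8S genes, was higher at 39.3%. The kilobase beginning at the match had 27.1%. The 4 kb after it, on the 28S side, were the lowest of the repeat at 21.6%, 17.3%, 17.1% and 15.5%. The stretches with 18S and 28S sequence were thus lower in Neg than the kilobase just before the 5.8S match and than the upstream end of the repeat. Depth moved with this: the 7 stretches with over 700 reads per CpG (766 to 1352) had means of 15.5% to 27.6%, and the 10 shallower ones (198 to 595 reads) had 27.1% to 60.6%. The part of depth in the profile was not tested.

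At the placed sequences the 10 CpGs of the 18S amplicon averaged 25.1% ± 4.56 (SD over CpGs) in the first copy and 24.9% ± 4.85 in the second. The 16 CpGs of the 5.8S match averaged 27.1% ± 12.9 and 25.5% ± 14.3. The 9 CpGs of the MIR10396B match averaged 34.2% ± 3.50 and 30.3% ± 3.27. The 18 CpGs of the MIR6724 match averaged 42.4% ± 8.02 and 33.7% ± 7.81, although their letters are identical. The pooled share there was 37.3 to 39.2 by its interval over 10040 counts, in which a read over several CpGs counts more than once. That interval is not an error for the gap between the copies, which was not tested. Taken singly over all 2000 pairs, CpGs differed by little more than counting error, with 6.25% of pairs beyond its 95% limits. Over the 14 stretches of 1 kb without a difference between the copies, the 2 means differed with an SD of 1.46 points and by at most 2.68, and over all 17 stretches by at most 5.51. This is a spread within 1 library, over copies that share most of their sequence, and it holds no error between libraries.

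**Figure D2:**
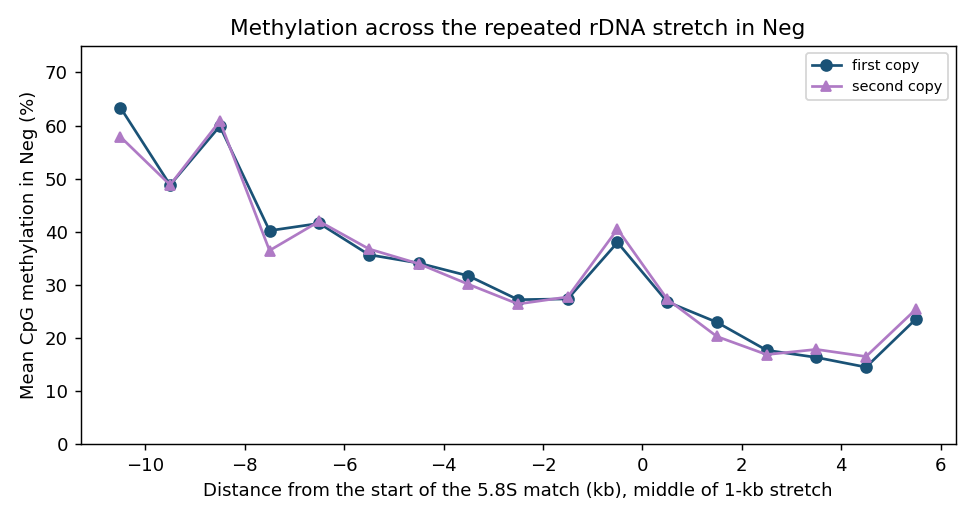
Mean CpG methylation in Neg (%) over 1-kb stretches of the repeat against distance from the 5.8S match, for the first copy (circles) and the second copy (triangles). The mean of both copies falls from 60.6% in the first stretch to 15.5% in the stretch that begins 4000 bases after the match, with a rise to 39.3% just before it.

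Over all 2046 compared CpGs the contig averaged 49.9% ± 30.1 (SD over CpGs) in Neg and 51.1% ± 31.3 in the treated library, a difference of 1.19 points, which became -1.26 with a minimum of 10 reads and 9.96 without the deepest CpGs. The sections differed in direction. Between the copies the mean difference was -3.23 points, and 0.593 by summed reads. The flank was higher in the treated library by 9.04 points and the 3′-end stretch by 9.75 points, while the intergenic spacer was lower, with a difference of -7.03 points. For comparison, the 1319472 CpGs of the main chromosomes rose from 69.4% to 74.3%, by 4.85 points, and those of other unplaced and unlocalised contigs by 2.96 points. By summed reads the main chromosomes went from 63.6% to 71.9%, and the flank from 54.3% to 63.6%. Among 27 such contigs with at least 50 CpGs, 21 were higher and 6 lower, with differences from -6.96 to 18.4 points. On mitochondrial DNA, where CpGs are taken to be unmethylated, the remaining signal was 7.24% in Neg and 4.57% in the treated library. Whether this difference is one of unconverted cytosine, and its part in the sections that were lower, was not tested.

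**Figure D3:**
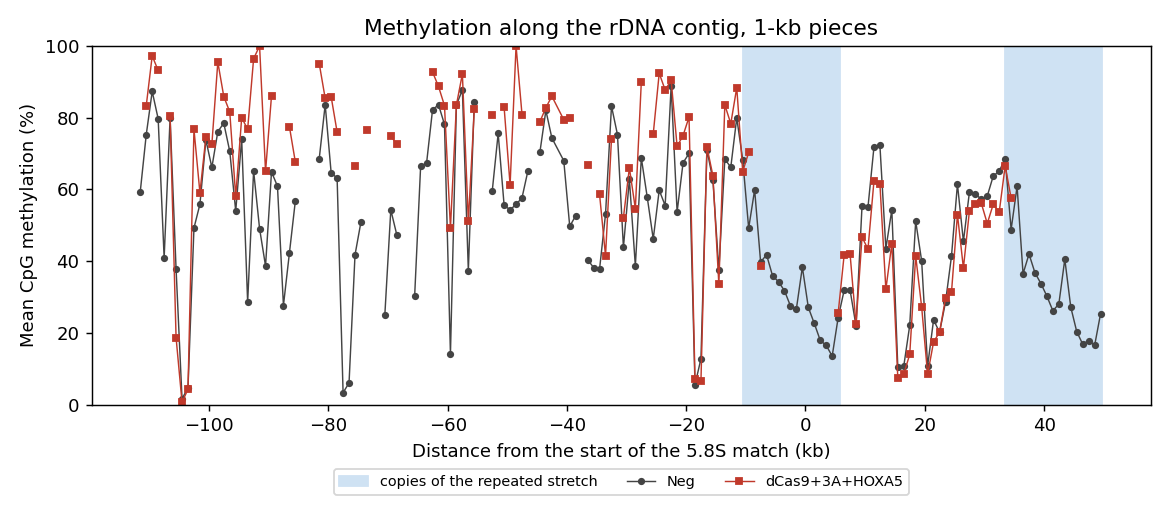
Mean CpG methylation (%) of 1-kb pieces with at least 3 CpGs of at least 5 reads in that library, against distance from the 5.8S match, for Neg (circles) and the treated library, dCas9+3A+HOXA5 (squares); shading marks the copies of the repeat. The treated library lies above Neg over most of the flank and just after the first copy, and below it over most of the intergenic spacer.

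The contig gave 82 pieces of 1 kb with at least 5 compared CpGs. Pieces were counted in the section where they begin, so those at 101001 (flank) and 145001 (intergenic spacer) run into the copies. A piece was called when Fisher's exact test on its summed reads, two-sided and Benjamini-Hochberg adjusted over 68042 pieces of all reference sequences, gave an adjusted p under 0.01 and the mean level differed by over 20 points. Of the 82 pieces 6 were called higher (2.41% of all pieces were) and 1 lower (1.0%). The 6 called higher all lay on the flank, whose 51 pieces held a median of 240 reads over both libraries, against 96 for all pieces. The part of depth in these calls was not tested. With a minimum of 10 reads 1 of 51 pieces was called higher (2.95% of all pieces were), and by the difference of summed reads 8 were higher (2.57%) and 0 lower (1.04%). At an adjusted p under 0.01 with no minimum difference, 13 were higher (3.04%) and 19 lower (1.21%), and 18 of those 19 lay in the intergenic spacer. At a difference of over 10 points the counts were 9 higher (2.9%) and 6 lower (1.11%). The pieces between the copies held a median of 31615 reads over both libraries, against 96 for all pieces, so a difference of a few points passed the test there. The shares of pieces that passed without a minimum difference therefore reflect depth as well as methylation.

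**Figure D4:**
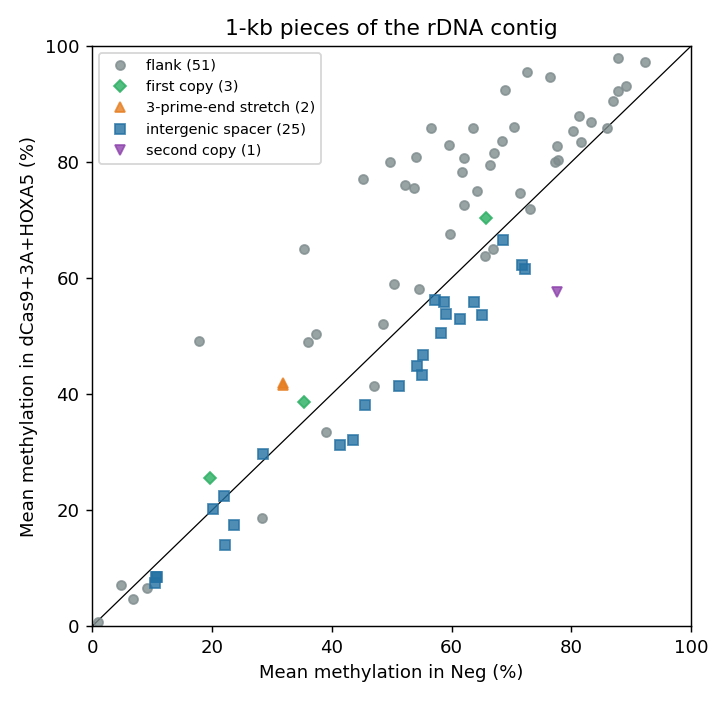
Mean methylation (%) of the 82 pieces in the treated library against Neg, by section of the contig, with the number of pieces in the key; the line marks equal levels. Of the 51 flank pieces 41 lie above the line, the 2 pieces of the 3′-end stretch lie above it, and 22 of the 25 pieces of the intergenic spacer lie below it.

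The section with the most compared CpGs was the intergenic spacer, with 954. Its mean was 51.1% ± 26.7 in Neg and 44.03% ± 26.3 in the treated library. Of its CpGs 806 were lower, 142 higher and 6 equal. Summed over reads, the share of methylated cytosine was 53.5% (95% Wilson interval 53.3 to 53.6) in Neg and 46.3% (46.1 to 46.5) in the treated library. All 25 pieces that begin in the spacer ranged from -11.7 to 1.05 points around a median of -7.66. Of these 18 passed the adjusted p in the lower direction and 0 in the higher.

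The 5 pieces with the largest losses among those tested on the contig included 4 in the spacer. The piece that began at 122001 fell by 11.7 points, from 55.1% to 43.4%, with 51 of 55 CpGs lower (Fisher's exact test, adjusted p = 3.85e-140). At 144001 the level went from 65.1% to 53.6% with 47 of 48 CpGs lower, and at 125001 from 43.5% to 32.1% with 45 of 46 lower. At 124001 the most methylated spacer piece of Neg went from 72.3% to 61.6%, with 66 of 69 CpGs lower. The surrounding 50 bases occur once in the reference for 33 of 46 CpGs at 125001 and 49 of 55 at 122001. At 144001 and 124001 they do so for all CpGs. The fifth was the single called loss, at 146001 in the second copy, where 5 CpGs near bases that differ between the copies went from 77.6% to 57.6% (Fisher's exact test, adjusted p = 5.26e-05). It was not called by the difference of summed reads (-18.8 points), and on a grid moved by 500 bp no piece was called lower. It rests on 195 reads in the treated library in a piece where most CpGs had none.

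The spacer was not uniform. In Neg the pieces from 121001 to 124001 and from 142001 to 145001 had means of 55.1% to 72.3%. Those at 137001 and from 139001 to 141001 lay in the same range, at 57.3% to 61.5%. The lowest, at 127001, 128001 and 132001, held 6 to 8 CpGs each and had 10.5%, 10.7% and 10.8% in Neg and 7.46%, 8.53% and 8.47% in the treated library. These low pieces stayed low in both libraries. Pieces at 120001, 134001 and 135001 were the exceptions in direction, at 21.9%, 20.2% and 28.6% in Neg and 22.4%, 20.2% and 29.6% in the treated library, and Fisher's exact test did not call any of them (adjusted p = 0.937, 0.914 and 0.0186). The piece at 142001 was the deepest in the spacer, with a median of 664.5 reads per CpG in Neg and 412 in the treated library, and went from 58.2% to 50.5%.

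The 3′-end stretch went the other way. Its 279 CpGs averaged 31.5% ± 13.9 in Neg and 41.3% ± 15.1 in the treated library, with 252 higher, 26 lower and 1 equal. Both its pieces were higher, at 118001 from 31.8% to 41.6% (146 of 164 CpGs higher) and at 119001 from 31.9% to 42.0% (103 of 109 higher). Each passed an adjusted p under 0.01 and neither mean level differed by 20 points, though the summed reads of the piece at 118001 did (20.4). Summed over reads, the share of the whole stretch was 24.8% (24.64 to 25.01) in Neg and 41.4% (41.1 to 41.7) in the treated library, a difference of 16.6 points. In bins of 500 bases the difference was 11.7 points from 118001, where the median depth was 1128 reads in Neg and 203 in the treated library, 8.04 from 118501, 9.63 from 119001 and 10.5 from 119501. It was 3.34 from 120001, -3.15 from 120501 and -9.51 from 121501, so the change of sign fell within about 1 kb.

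**Figure D5:**
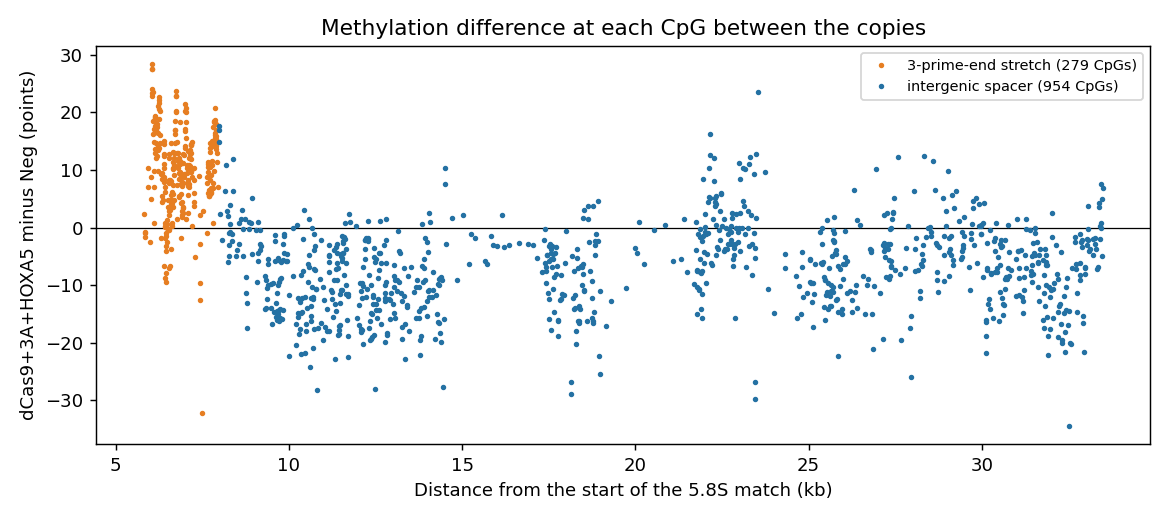
Difference in methylation (the treated library minus Neg, points) at each of the 1233 CpGs between the copies, against distance from the 5.8S match. In the 3′-end stretch 252 of 279 CpGs lie above 0, and in the intergenic spacer 806 of 954 lie below it.

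Depth moved with part of this gain. In Neg 71 CpGs of the 3′-end stretch had over 1000 reads, with a median of 1249 against 407 in the treated library. They went from 17.0% to 31.2%, with 69 of 71 higher. The other 208 CpGs, with medians of 505.5 and 305.5 reads, went from 36.5% to 44.7%, by 8.25 points, with 183 higher. The deeper CpGs of Neg thus had lower levels and larger differences, and the gain was 8.25 points without them. In the printed 3′-end sequence all 12 CpGs were higher, at 2.2% to 12.2% in Neg and 7.20% to 39.3% in the treated library, with 1147 to 3159 reads in Neg and 292 to 565 in the treated library.

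Single CpGs were tested in the same way, adjusted over 1331621 CpGs. On the contig 22 were called higher (0.0131% of all CpGs were) and 23 lower (0.00285%). All 22 higher ones lay in the 3′-end stretch. Of the 23 lower ones 22 lay in the intergenic spacer and 1 on the flank. With no minimum difference 84 were higher (0.0231%), 83 of them in the 3′-end stretch, and 108 lower (0.0191%), 107 of them in the spacer. These counts rest on the depth of the rDNA, since most CpGs elsewhere had too few reads for a call: the median over the compared CpGs of the main chromosomes was 7 in Neg and 6 in the treated library.

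The largest called gain was at 118086, from 10.9% (241 of 2233 reads) to 39.3% (171 of 442). Its neighbours at 118088, 118077 and 118067 went from 10.5% to 38.1%, from 9.30% to 36.9% and from 10.6% to 34.6%. Those 4 lie within the printed stretch and share reads. The fifth, at 118770, went from 38.4% to 62.1% with 316 and 240 reads. The largest called loss was on the flank at 95442, from 16 of 19 reads to 0 of 13, which allows a level of up to 23.1% (Fisher's exact test, adjusted p = 0.00807). In the spacer the levels at 144538, 130158 and 122839 went from 74.9% to 40.4%, from 54.9% to 25.9% and from 58.1% to 29.9%. The last is in the printed spacer stretch, where all 3 CpGs were lower. The 50 bases around 130158 occur 2 times in the reference.

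Terminator-like letters were looked for because the 3′-end stretch is where Sal boxes are known to lie. The core of the box, GTCGAC, reads the same on both strands and occurred 15 times on the contig, 7 of them within the 3′-end stretch. It was in 10 of 161 pieces of 1 kb (6.21%), against 1.06% of 2864415 windows of 1 kb in the genome. These letters hold a CpG, and the windows were not matched to the contig's 39.9 CpGs per kb. Sites in the first copy recur in the second and were counted in both. The CpGs inside those 7 averaged 21.9% in Neg and 26.3% in the treated library, with 6 of 7 higher and differences from -1.90 to 10.5 points. They were below the mean of the stretch in both libraries. Another copy of these letters lies in the MIR6724 match, where Neg had 32.8% (75 of 229 reads) in the first copy and 20.8% (47 of 226) in the second, and the treated library had no reads in either.

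The flank is low in CpGs, at 12.0 per kb against 128.6 in the 3′-end stretch, with medians of 13 and 7 reads per listed CpG, which is about 4 times the depth of the main chromosomes (above). Its 716 compared CpGs averaged 56.1% ± 36.1 in Neg and 65.2% ± 37.6 in the treated library, with 373 higher, 199 lower and 144 equal. Summed over reads the share was 54.3% (53.4 to 55.2) in Neg and 63.6% (62.5 to 64.7) in the treated library. The 51 pieces that begin on the flank had a median difference of 7.87 points, against 2.56 over all 68042 pieces, and 41 were higher. The largest gain was at 25001, where 6 CpGs went from 45.2% to 77.1% (Fisher's exact test, adjusted p = 0.00620). At 52001 the 12 CpGs went from 17.8% to 49.2%, with 10 higher and none lower (Fisher's exact test, adjusted p = 1.08e-06). The pieces at 72001, 21001 and 88001 gained 30.3, 29.7 and 29.3 points and did not pass Fisher's exact test (adjusted p = 0.0989, 0.105 and 0.0456).

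Of the 5 flank pieces under 20% in Neg, the one at 52001 rose as given above and the others kept low levels. The 40 CpGs of the piece at 7001 had 1.01% ± 2.67 in Neg and 0.652% ± 2.49 in the treated library, and the 15 CpGs of the printed CpG-rich stretch within it had 0.807% and 1.13%. The next piece, at 8001, had 6.77% and 4.64%. Pieces at 93001 and 94001 had 4.75% and 9.23% in Neg and 7.08% and 6.67% in the treated library. None of these 4 pieces was called. The tested pieces with the fewest reads per CpG in Neg, at 68001, 89001 and 2001, were highly methylated in both libraries, at 77.7%, 86.9% and 92.3% in Neg and 82.8%, 90.4% and 97.2% in the treated library.

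The repeat itself could be compared only near its edges and near bases that differ between its copies. The 72 CpGs covered in the first copy averaged 40.8% in Neg and 42.3% in the treated library, with 37 higher and 35 lower, and by summed reads 23.9% and 50.2%. The 25 covered in the second copy averaged 59.96% and 53.7%, with 7 higher and 18 lower, but with a minimum of 1 read the difference turned from -6.26 to 8.49 points. The 3 tested pieces that begin in the first copy were higher at an adjusted p under 0.01, at 102001 from 65.8% to 70.3% with 5 CpGs higher and 3 lower, at 104001 from 35.4% to 38.6% with 10 higher and 9 lower, and at 117001, which lies in the 28S gene by its position and runs past the copy's end, from 19.6% to 25.5% with 22 of 32 CpGs higher. The 18S and 5.8S genes held no compared CpG.

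The other ribosomal RNA gene family, the 5S genes transcribed by RNA polymerase III, forms an array on chromosome 1 (hg19, 228746015 to 228781905, 17 annotated genes) and showed the same difference between the files. Neg listed all 3178 CpGs of the array and the treated library 347. The 181 CpGs covered in both averaged 71.4% in Neg and 66.8% in the treated library. Inside the 5S genes 11 CpGs were covered in both, at 62.0% and 61.6%. As in the 45S repeat, the comparison rests on the few CpGs that both files list.

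Of 30 genes for RNA polymerase I subunits, its factors and nucleolar proteins, 8 had a promoter (1 kb around the gene start) with at least 5 compared CpGs. Of these 8 promoters 1 was called higher, where 1.47% of 7962 promoters were, and 0 were called lower (0.98%). At an unadjusted p under 0.05 the count was also 1. The called promoter was that of KDM2B, a histone demethylase known to act on rDNA chromatin, where 11 CpGs went from 6.66% (5 of 73 reads) to 77.3% (53 of 68 reads, Fisher's exact test, adjusted p = 3.39e-16). POLR1A, the largest subunit of the polymerase, had 0 of 31 reads in Neg, which allows up to 9.68%, and 4 of 30 in the treated library (Fisher's exact test, adjusted p = 0.330). POLR1C had 19.2% and 28.6% (Fisher's exact test, adjusted p = 0.516). At NOP58, a core protein of the particles that methylate rRNA, no read was methylated in either library, out of 32 and 35, which allows up to 9.38% and 8.57%.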

How the data were processed

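Genomic DNA of 2 HEK 293T samples was bisulfite converted and sequenced by the study. Per the labels and the study's methods, reads were aligned to hg19 with BSMAP 2.90. For each CpG the authors deposited counts of C and of C or T, an estimated count corrected for reads of the opposite strand, and a fraction methylated (C over the estimated count). How duplicates and reads with several matches were treated is not stated in the labels or methods. Methylation levels are means of the deposited fractions over the CpGs covered by 5 or more reads in each library, and tests used counts of C and T. The contig sequence was that of GRCh37, whose length and CpG positions matched the files. Repeats and features were placed with blastn 2.17.0 at 80% identity or more. Fisher's exact test was computed with numba 0.67.0, matched scipy 1.17.1, and was run on simulated data. Of 200 pieces changed by 40 points among 68042, 60.0% were recovered and 1 unchanged piece was called. The simulated reads were independent, and pieces were called by the difference of summed reads and not of mean levels. These figures therefore give no rate of false calls for the deposited reads. Intervals and tests take the summed counts as independent and cover counting error only. A read over several CpGs counts more than once, and PCR duplicates may too. Intervals can therefore be too narrow and the p-values of pieces too small. The limit for a count of 0 is 3 counts. Named pieces and CpGs were the 5 largest gains and 5 largest losses, and the 3 deepest and 3 shallowest pieces by depth in Neg. The piece that holds the 45S start was not located. The members, lists and rules were chosen with earlier results of these data known. The exclusion and depth alternatives are given at the end. One of the named single CpGs is not reported here.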

Additional observations from a re-analysis of the deposited data

How the results depend on the processing

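No paired analysis was possible because there is only 1 library in a group. The flank kept its direction under each alternative run on it. The 3′-end stretch and the intergenic spacer did too, but they were divided after the values had been seen and near the change of sign, which largely fixed this. The contig mean of 1.19 points became 2.32 with a minimum of 1 read, -1.26 with 10 reads (which removes flank CpGs), 1.70 by summed reads and 9.96 without CpGs deeper than nearly all of the main chromosomes (29 reads in Neg, 16 in the treated library), which left the flank and too few CpGs elsewhere for a value. The flank gained 6.56 points with 10 reads. CpGs whose estimated count was under 80% of that of C or T in either library were also left out. The contig then gained 1.02 points and the flank 8.91. Of 80 pieces 7 were then called higher (2.44% of all pieces) and 1 lower (1.02%). The whole section between the copies was -3.23 points and 0.593 by summed reads, which weight the deep reads of Neg. The first copy went from 1.52 to 26.3 by summed reads. The second copy went from -6.26 to -2.64 by summed reads and to 8.49 with 1 read. Pieces called higher numbered 6, and 1 with 10 reads (2.95% of all pieces). Pieces called lower numbered 1, with 0 on a grid moved by 500 bp (0.998% of all pieces), 0 by the difference of summed reads (1.04%) and 6 at over 10 points (1.11%). Single CpGs with no minimum difference numbered 84 higher (0.0231% of all CpGs) and 108 lower (0.0191%). The depth ratio of 0.371 was 0.735 per CpG listed in both files and 0.416 against the median tile. On those bases it was 0.765 and 1.13 for the flank, 0.771 and 1.17 between the copies, 0.139 and 0.0128 for the first copy and 0.407 and 0.00502 for the second, from 0.0114 and 0.00447. Chosen after the data were seen, CpGs in a 50-base word found once in the genome gave 1.56 for the contig, -7.43 for 7 CpGs of the first copy, -2.78 between the copies, -3.17 for the second copy, 9.80 for the 3′-end stretch and -6.80 for the intergenic spacer. In the 3′-end stretch the gain was 16.6 points by summed reads and 8.25 without CpGs over 1000 reads in Neg. In 500-bp pieces 4 between the copies passed the adjusted p as higher and 32 as lower, and in 2-kb pieces 1 and 12. The shares of all pieces that passed at these lengths with no minimum difference were not computed, and such counts reflect depth as well as methylation.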
